A study of Mus musculus with 28 samples.

Results

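H3K27ac at the genes of the AP-1 transcription factors was followed through the TGF-β response of mouse mammary epithelial cells. The 9 genes are Fos, Fosb, Fosl1 and Fosl2, which encode the Fos proteins, Jun, Junb and Jund, which encode the Jun proteins, and Atf2 and Atf3. A peak was taken as belonging to one of them when its summit lay within 100 kb of a start site of the gene and no protein-coding start site was closer (GENCODE vM1 annotation of mm9). Of 893719 peaks in the 15 libraries, 1031 were chosen by this rule, 124 of them in promoters (1000 bp before to 100 bp after a start site) and 907 distal. Overlapping peaks of all libraries were merged, and the gene of more than 50% of its peaks was given to each merged region. This assigned 79 of 89050 regions to the 9 genes, and 30 of the 79 held a peak in every library.

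NMuMG cells are an untransformed mouse mammary gland line that loses its epithelial form under TGF-β, here used as subclone E9. The 0h samples were untreated, and the 4h and 24h samples received 2 ng/ml TGF-β with the solvent DMSO. In 4h or 24h against 0h, TGF-β, the solvent and the time in culture therefore cannot be told apart. In the ERKi 4h and ERKi 24h samples the MEK inhibitor UO126 was added at 25 µM, 30 min before the same dose of TGF-β. Each of the 5 conditions had 3 ChIP-seq libraries for H3K27ac, a histone mark of active promoters and enhancers. UO126 was not given without TGF-β, the line is 1 subclone, and the labels do not say whether replicates were separate cultures, so p-values measure the spread between these libraries. In bulk libraries, fewer cells with the mark and less of the mark per cell cannot be told apart.

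AP-1 binds DNA as a dimer of a Fos protein with a Jun protein, or of Jun or ATF proteins with each other. The genes of this family are textbook targets of ERK signalling. ERK phosphorylates ternary complex factors that sit with SRF at a CArG box in the Fos promoter, and Fra-1, the product of Fosl1, is made and stabilised under sustained ERK activity. AP-1 proteins can also act on enhancers of their own genes, and in epithelia they cooperate with SMAD proteins downstream of TGF-β.

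The sequences shown first are those around matches to the AP-1 site TGAGTCA, or its reverse complement TGACTCA, in 5 of the regions described in detail. The Fosl2 27.9 kb, Atf3 0.30 kb and Jun -91.3 kb regions each hold 1 further match, which is not printed. They were read from the plus strand of mm9 with the match in capitals. The first of 2 matches at Fosl1 was in a UTR, at chr19:5447887-5447913, and the second in an intron, at chr19:5448825-5448891. The Fosb matches were at chr7:19902100-19902166, chr7:19902319-19902385 and chr7:19902739-19902805, the Jun match at chr4:94772229-94772295 and the Fos match at chr12:86790344-86790410, all intergenic. The Atf2 matches lay in an Atf2 intron at chr2:73698203-73698269 and chr2:73698414-73698480.
Fosl1 UTR: gaggcgcgagTGAGTCAgaaccgcagc
Fosl1 intron: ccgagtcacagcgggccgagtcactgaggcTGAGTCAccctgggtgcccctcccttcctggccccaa
Fosb upstream, nearest match: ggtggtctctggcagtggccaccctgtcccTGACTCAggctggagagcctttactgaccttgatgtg
Fosb upstream, middle match: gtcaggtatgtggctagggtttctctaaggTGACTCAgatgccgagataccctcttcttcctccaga
Fosb upstream, farthest match: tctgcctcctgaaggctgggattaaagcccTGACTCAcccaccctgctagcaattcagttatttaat
Jun upstream: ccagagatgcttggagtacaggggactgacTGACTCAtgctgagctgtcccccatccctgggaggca
Fos upstream: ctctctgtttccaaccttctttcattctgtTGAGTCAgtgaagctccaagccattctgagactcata
Atf2 intron, first match: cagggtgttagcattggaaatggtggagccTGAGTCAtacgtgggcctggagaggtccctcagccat
Atf2 intron, other match: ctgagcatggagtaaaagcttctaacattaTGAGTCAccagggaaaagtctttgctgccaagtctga

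The CArG boxes near the starts of Fos and Fosb are shown as the sites where SRF is known to bind. The Fos box lies at -309 bp from the start site (chr12:86814501-86814570) and the Fosb box lies at -272 bp (chr7:19895627-19895696).
Fos CArG box: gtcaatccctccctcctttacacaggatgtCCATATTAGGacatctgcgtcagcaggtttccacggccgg
Fosb CArG box: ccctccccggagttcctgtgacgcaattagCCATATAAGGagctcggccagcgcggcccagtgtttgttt

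In windows of 500 bp around the summits, an AP-1 match was present in 17 of the 79 regions (21.5%), and in 18.0% of all regions. Of the matches printed above, those at Fosl1, Fos and Jun and the nearest and middle ones at Fosb lay outside these windows. The share of all regions with a match anywhere inside was not computed, so those matches have no background share. A CArG box was present in 5 of the 79 (6.33%), against 2.35% of all regions. The boxes that also lay inside the region itself were those at the starts of Fos and Fosb and in the Fos -11.0 and 52.8 kb regions. The CRE sequence TGACGTCA was in 1 of the 79 windows, which is 1.27%, against 0.707% of all. In promoter sequences of 300 bp, from 250 bp before to 50 bp after a start, the family had a CRE in Jund, at -223 bp, and a CArG box at 1 of the Atf2 starts. Of all promoters of this length 4.27% held an AP-1 match, 2.13% a CRE and 1.35% a CArG box. A match shows only that the letters are there.

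The libraries held 50445 to 69180 peaks. The level of a peak is given as its summit pileup, the number of fragments stacked at the summit, which was worked out from the fold enrichment and p-value of the lists. The median pileup of a library was 38 to 41 in the replicate 2 libraries and 43 to 57 in the others, so raw pileups of replicate 2 ran lower throughout, and the tests used pileups made comparable by quantile normalisation. Of 8 epithelial markers, Cdh1, Krt8, Krt18 and Krt19 had a peak within 2.5 kb of a start in every library. Cldn4 had one in 11 of 15 libraries and Grhl2 in 3, while Epcam and Esrp1 had none. Of 8 markers of other cell types 7 had no peak in any library, and Gfap had one in 2. The library number in the peak names of ERKi 4h replicate 1 fell outside the order of the others. Without that library, no region of the 9 genes was called in ERKi 4h against 4h, as with it. Over all regions 43 were called without it and 160 with it, both without the replicate number as a block. With so few calls, this cannot show whether the library is labelled rightly.

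The plot of the regions by their distance from the start sites shows how differently the 9 genes were surrounded by the mark. Fos had 20 regions, spread from -42.7 to 53.9 kb, and Jun 16, from -92.0 to 26.3 kb. Atf3 and Fosl2 had 10 each, Fosb 8, Junb 6, Atf2 4, Jund 3 and Fosl1 2. The regions of Junb all lay between -5.6 and 1.6 kb in a broad domain of high pileup. In 14 of the 79, a peak was found in a single library, and these were weak, with pileups of 14 to 48.

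**Figure D1:**
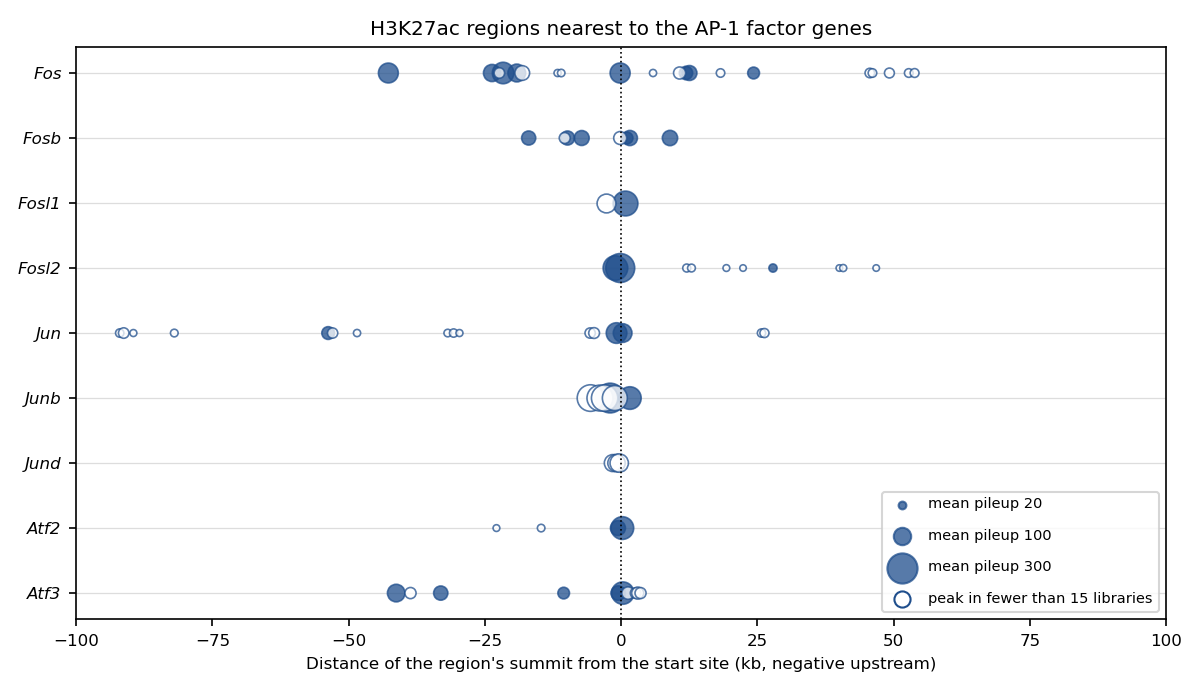
Regions of H3K27ac assigned to each AP-1 gene, by the distance of the summit from the start site in kb, with the area of a circle in proportion to the mean pileup over the libraries with a peak. Filled circles are the 30 regions with a peak in every library, and open circles those with a peak in fewer. Fos and Jun have regions far out on both sides, while those of Junb lie between -5.6 and 1.6 kb.

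To compare the genes within a library, the highest peak with its summit within 2.5 kb of a start site was ranked among all peaks of that library. All 9 genes had such a peak in all 15 libraries. Junb, an immediate early gene, was highest with a median percentile of 99.4, followed by Fosl2 at 99.2 and Fosl1 at 97.8. Atf3, a stress-induced factor, had 94.1 and Atf2, which is activated by phosphorylation, 93.6. Then came Jun with 90.0, Fos with 86.9, Jund with 82.4 and Fosb with 70.5. Neighbours in this order were close: Junb was above Fosl2 in 9 of 15 libraries, Fosl1 above Atf3 in 9 and Atf3 above Atf2 in 5, and no neighbouring pair kept its order in all 15. Fosl1 was at 98.6 ± 0.675 (SD, n = 3) at 0h and at 74.4 ± 3.02 (n = 3) in ERKi 24h. Atf3 was at 84.4 ± 1.49 at 0h, 93.5 ± 2.96 at 4h and 96.1 ± 0.317 in ERKi 4h, so that its 0h libraries, at 85.5 and below, lay under every other library.

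**Figure D2:**
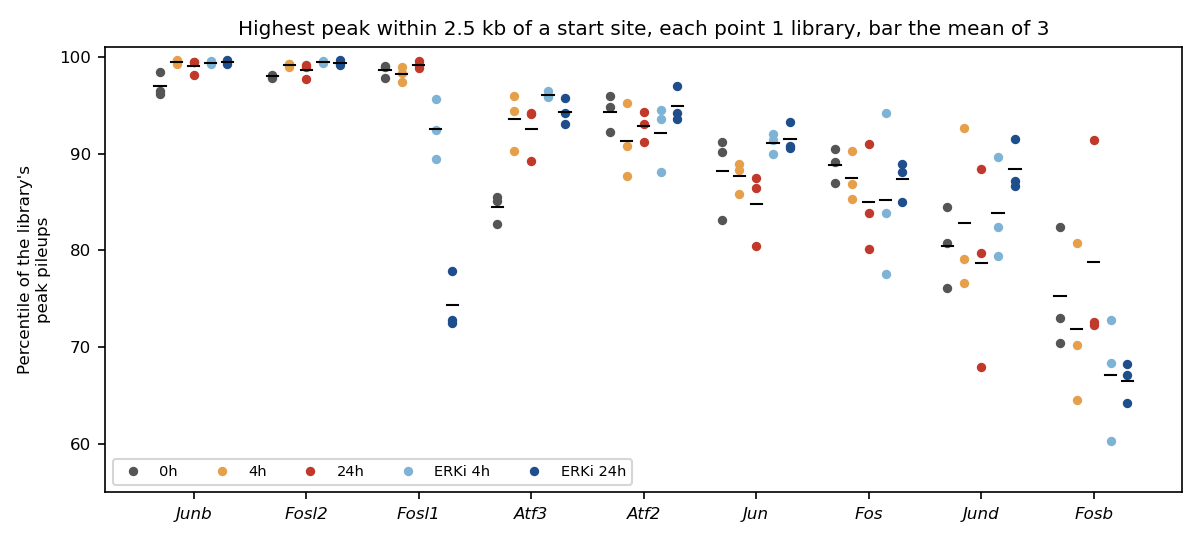
Level of the highest H3K27ac peak within 2.5 kb of a start site of each gene, as the percentile of its pileup among all peaks of the same library. Points are single libraries coloured by condition and bars the means of 3. Fosl1 leaves the top group only with the inhibitor, and Atf3 is lowest at 0h.

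The first question was which regions differed between 0h and the 4h and 24h samples with TGF-β. At 4h, 5 of the 30 regions rose, 3 upstream of Fos and 2 upstream of Fosb, and 0 fell (limma, with 11 higher and 0 lower at an unadjusted p under 0.05). Over all 26920 regions tested, 3.34% rose and 0.572% fell. At 24h, 6 of the 30 rose, those 5 with a region upstream of Jun, and 1 near Fosl2 fell, against 10.4% and 8.21% of all regions. Both comparisons use the same 0h libraries. The median log2 change of the 30 was 0.15 at 4h and 0.12 at 24h, beside -0.06 and -0.05 over all regions. In this fit, which did not use the replicate numbers, the count at 4h rested on single libraries. It was 1 without 0h replicate 1, 1 without 4h replicate 1 and 2 without 4h replicate 3. The replicate numbers paired the libraries, and with the number as a block 10 rose and 0 fell at 4h, where 10.4% of all regions rose and 6.28% fell. Among the 10 were the 5 regions above, with blocked adjusted p-values of 5.75e-05 to 0.00248. The fits with a library left out, here and below, had no block, so they do not show how far the blocked calls depend on single libraries. With the block, 9 rose and 2 fell at 24h, against 17.2% and 18.1%.

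Fos encodes the partner of Jun proteins that is made soon after a growth stimulus, and regions upstream of it gained the mark. In the -42.7 kb region (chr12:86770293-86773342) the pileups of replicates 1, 2 and 3 were 83, 67 and 75 at 0h, 186, 109 and 190 at 4h, and 171, 97 and 175 at 24h. They were 115, 91 and 168 in ERKi 4h and 137, 90 and 194 in ERKi 24h. Every treated library was above every 0h library. The normalised level rose 2.07-fold at 4h (log2 1.05 ± 0.22 SE, adjusted p = 0.0141) and 1.90-fold at 24h (log2 0.93 ± 0.22, adjusted p = 0.00791). The adjusted p at 4h passed 0.05 without 0h replicate 1, 4h replicate 1 or 4h replicate 3, with a highest value of 0.0809.

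The Fos -19.1 kb region (chr12:86795315-86796280) had pileups of 58, 42 and 42 at 0h, 142, 70 and 149 at 4h and 107, 66 and 113 at 24h. With the inhibitor it stood at 120, 69 and 126 at 4h and at 165, 98 and 199 at 24h, the highest in each replicate. Here too no treated library fell within the 0h range. The rise was 2.38-fold at 4h (log2 1.25 ± 0.22, adjusted p = 0.00361) and 1.94-fold at 24h (log2 0.96 ± 0.22, adjusted p = 0.0049), and both calls held with each library left out. ERKi 24h was 1.43-fold above 24h (adjusted p = 0.172, and 0.024 with the block).

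Between them, the Fos -23.7 kb region (chr12:86790057-86791988), with the AP-1 match printed above, read 65, 47 and 68 at 0h, 128, 81 and 164 at 4h, and 102, 103 and 115 at 24h. It rose 1.97-fold at 4h (log2 0.98 ± 0.25, adjusted p = 0.0371) and 1.77-fold at 24h (adjusted p = 0.0292). The call at 4h was lost without 0h replicate 1, 0h replicate 2, 4h replicate 1 or 4h replicate 3 (adjusted p of at most 0.17), and that at 24h without 0h replicate 1, 0h replicate 2, 24h replicate 2 or 24h replicate 3 (at most 0.123). Both calls were also lost by -log10 p (adjusted p = 0.313 and 0.422) and with peaks merged within 1000 bp (log2 0.54, adjusted p = 0.166 at 4h, and log2 0.10, adjusted p = 0.823 at 24h). The neighbouring -21.7 kb region, with pileups of 90 to 251, was 0.54 higher at 4h on the log2 scale (adjusted p = 0.169, and 0.00426 with the block). Downstream, the 11.9 kb region was 0.51 higher at 4h (adjusted p = 0.294, and 0.0392 with the block). The region across the Fos start, which holds the CArG box, read 181, 118 and 134 at 0h, 148, 121 and 132 at 4h and 124, 123 and 113 at 24h. Its ranges overlapped in all 4 comparisons, and its log2 changes were between -0.21 and 0.08.

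Fosb, whose product pairs with Jun proteins as c-Fos does, had 2 upstream regions that rose. In the -7.2 kb region (chr7:19901495-19903201), which holds 3 AP-1 matches, pileups were 44, 38 and 48 at 0h, 106, 61 and 96 at 4h, and 94, 66 and 103 at 24h. The level rose 1.91-fold at 4h (log2 0.93 ± 0.19, adjusted p = 0.0109) and 1.93-fold at 24h (log2 0.95 ± 0.19, adjusted p = 0.0022). The call at 4h was lost without 0h replicate 1, 4h replicate 1 or 4h replicate 3, with an adjusted p of at most 0.067. In the -9.8 kb region (chr7:19904717-19905443), pileups of 38, 37 and 29 at 0h stood against 79, 66 and 71 at 4h and 89, 49 and 95 at 24h, a rise of 1.98-fold (adjusted p = 0.018) and 2.08-fold (adjusted p = 0.00282). The 4h call was lost without 0h replicate 1, 0h replicate 3, 4h replicate 1 or 4h replicate 2, with an adjusted p of at most 0.0943. Within the Fosb gene, the intronic 1.1 and 1.6 kb regions had log2 changes of -0.06 to 0.18 at 4h and 24h, and none was called. The region at the Fosb start, with the CArG box, had a peak in 14 of 15 libraries and was not tested. At 0h it had no peak in replicate 1 and read 95 and 79 in replicates 2 and 3. It read 43, 89 and 52 at 4h and 39, 125 and 38 at 24h. With the inhibitor it read 33, 31 and 37 at 4h and 39, 31 and 41 at 24h. Of the 26 peaks in the Fosb -17.0 kb region 11 were nearest to Ercc1, and it did not pass the test in any comparison.

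Jun, the main partner of Fos proteins, was the gene with the largest rise at 24h. In the -53.8 kb region (chr4:94772148-94773621) pileups were 42, 25 and 23 at 0h, 47, 35 and 53 at 4h, and 99, 56 and 103 at 24h. The normalised 24h libraries did not overlap with 0h, and the rise was 2.77-fold (log2 1.47 ± 0.20, adjusted p = 0.00012), which held with each library left out. At 4h the difference was 1.45-fold (adjusted p = 0.182, and 0.0236 with the block). With the inhibitor it read 49, 28 and 45 at 4h and 84, 38 and 76 at 24h, and the 24h level was 0.55 below that without it on the log2 scale (adjusted p = 0.111, and 0.0141 with the block). The 2 regions at the Jun start, with pileups of 105 to 210 at -0.84 kb and 78 to 180 at 0.28 kb, were not called at 4h or 24h of TGF-β.

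The local background, the level that MACS2 expected at the summit, moved with the pileup upstream of Fos and Jun. Its part in these results was not tested. At the Fos -42.7 kb region it was 10.3 to 13.3 fragments at 0h, 19.8 to 33.9 at 4h and 20.6 to 31.7 at 24h, and at the Jun -53.8 kb region it was 2.5 to 3.81 at 0h and 5.96 to 11.7 at 24h. The fold enrichment of the summit over that background was 5.31 to 6.03 at 0h and 5.28 to 5.96 at 4h in the first of these. By fold enrichment in place of pileup, none of the rises at Fos, Fosb and Jun was called, with log2 changes of -0.13 to 0.25 at 24h, and 3 regions fell at 24h, Fos -21.7 kb, Fos -0.18 kb and Fos 11.9 kb (log2 -0.82, -0.57 and -0.63).

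**Figure D3:**
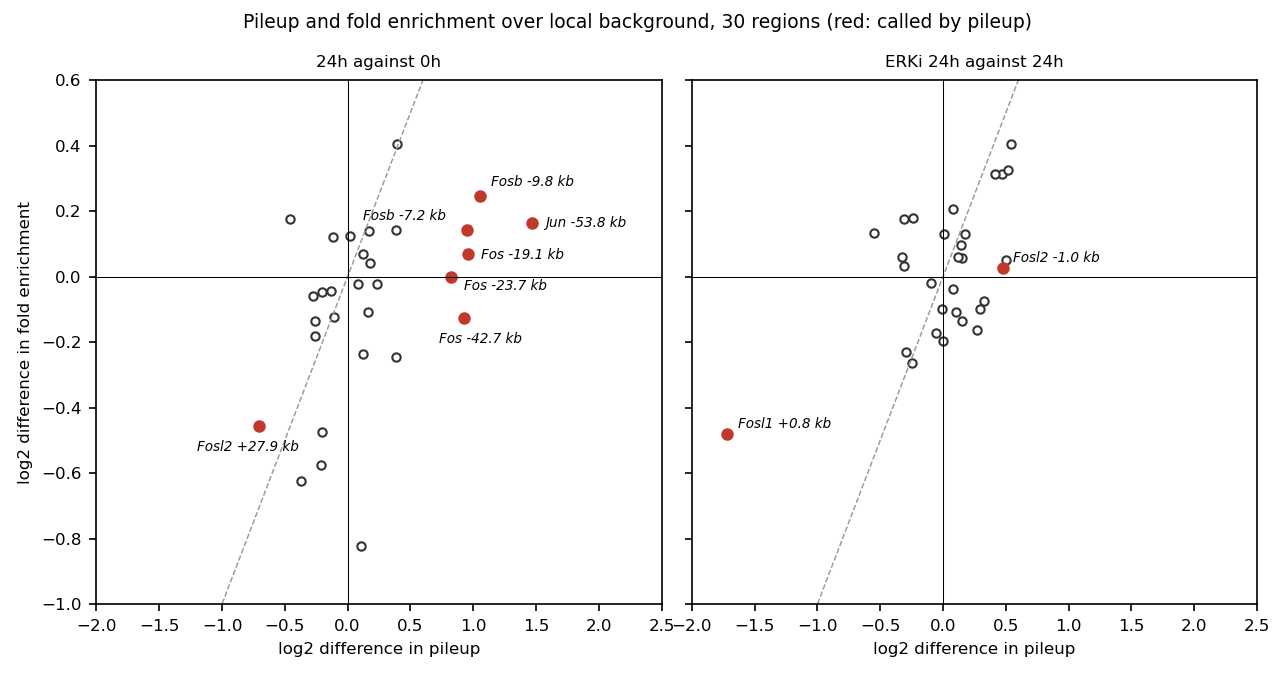
Log2 difference in fold enrichment over the local background (y axis) against the log2 difference in summit pileup (x axis) for the 30 regions, at 24h against 0h (left) and with the inhibitor at 24h (right). Red points are called by pileup, and the dashed line marks equal differences. On the left, the red Fos, Fosb and Jun points lie far to the right but between -0.13 and 0.25 in fold enrichment, and on the right Fosl1 is the lowest on both axes.

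Fosl2 encodes Fra-2, which is expressed more steadily than c-Fos. Its 27.9 kb region (chr5:32465896-32467425) was the weakest of those tested in this gene, with 21, 18 and 31 at 0h, 26, 22 and 31 at 4h, and 14, 13 and 17 at 24h. The 24h libraries lay below the others without the inhibitor, a fall to 0.614 of the 0h level (log2 -0.70 ± 0.23, adjusted p = 0.0445). The call was lost, with an adjusted p of at most 0.207, without 0h replicate 3, any 4h replicate, 24h replicate 1, 24h replicate 2 or ERKi 4h replicate 1.

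For Atf3 and Junb, calls at 4h and 24h against 0h depended on the block. The Atf3 0.30 kb region (chr1:193006201-193007137, in an intron) read 158, 104 and 111 at 0h, 173, 145 and 197 at 4h, and 165, 141 and 167 at 24h. It was 0.49 ± 0.14 (SE) higher on the log2 scale at 4h (adjusted p = 0.0725, and 0.00735 with the block) and 0.39 higher at 24h (adjusted p = 0.068, and 0.0127 with the block), and the normalised libraries of 0h did not overlap with either. The other Atf3 promoter region, upstream at -0.53 kb, did not rise. Its log2 changes were -0.04 at 4h and -0.26 at 24h, called in neither fit. The distal Atf3 regions at -41.3, -33.1 and -10.5 kb were not called, with log2 changes of -0.46 to -0.12 at 4h and 24h, and the first of these passed the test at 24h with the block (adjusted p = 0.0373). Junb at -2.0 kb read 268, 166 and 219 at 0h against 368, 231 and 363 at 4h, a log2 difference of 0.59 ± 0.16 (adjusted p = 0.0541, and 0.00173 with the block), and was 0.38 higher at 24h (adjusted p = 0.125, and 0.0141 with the block). Its 1.6 kb region was 0.39 higher at 24h (adjusted p = 0.0843, and 0.00807 with the block).

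**Figure D4:**
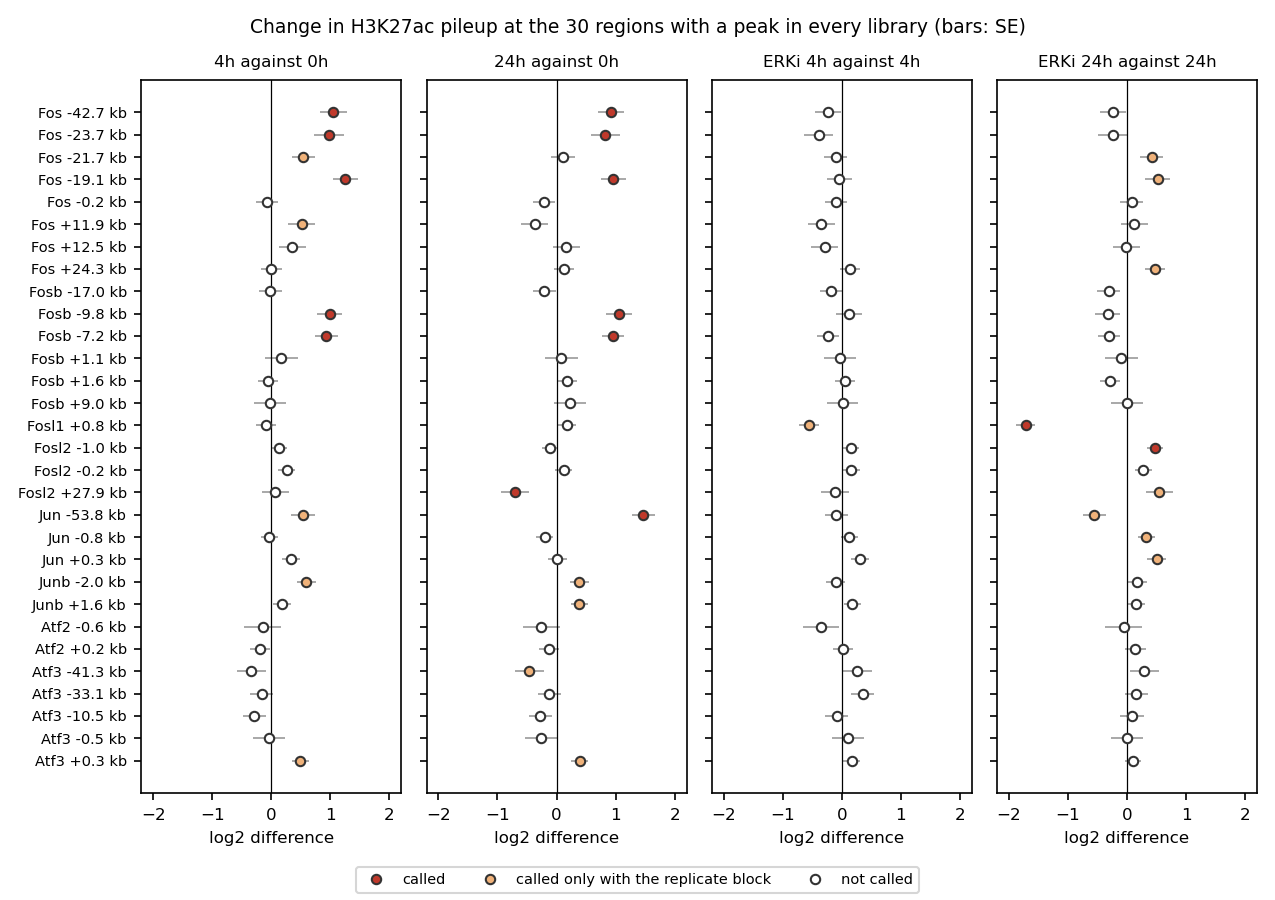
Log2 difference in normalised H3K27ac pileup at the 30 regions with a peak in every library, in 4 comparisons, with bars for the SE. Red points are called at an adjusted p under 0.05, orange points only with the replicate block, and white points in neither. Rises at 4h and 24h cluster upstream of Fos and Fosb, and the largest difference is the fall of Fosl1 with the inhibitor at 24h.

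The second question was what ERK inhibition changed under TGF-β. At 4h, 0 of the 30 regions rose and 0 fell (limma, with 0 higher and 1 lower at an unadjusted p under 0.05), where 0.0371% of all regions rose and 0.557% fell. With the block, 0 rose and 1 fell, against 1.34% and 3.57%. At 24h, 1 rose, at Fosl2, and 1 fell, at Fosl1, against 3.93% and 4.69% of all regions. With the block, 7 rose and 2 fell at 24h, against 13.1% and 12.9% of all regions. The median log2 difference of the 30 was -0.04 at 4h and 0.09 at 24h, beside 0.02 and 0.01 over all regions.

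The fall was at Fosl1. Its region across the start and the first intron (chr19:5447637-5449750, summit at 0.76 kb) holds both AP-1 matches printed above. Pileups were 308, 218 and 248 at 0h, 271, 215 and 221 at 4h and 313, 265 and 249 at 24h, with a log2 difference of 0.17 between 24h and 0h (adjusted p = 0.609). With the inhibitor they were 186, 110 and 148 at 4h and 121, 68 and 99 at 24h, and each ERKi 24h library was below every other library of its replicate. At 24h the normalised level fell 3.29-fold (log2 -1.72 ± 0.17, adjusted p = 4.95e-05), and the call held with each library left out, with log2 changes of -1.81 to -1.60. At 4h the groups did not overlap and the level was 1.46-fold lower (log2 -0.55 ± 0.17, adjusted p = 0.249), which passed the test with the block (adjusted p = 0.0315).

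At the same Fosl1 summit, the local background was 43.7 to 50.9 at 24h and 15.1 to 26.7 in ERKi 24h. The fold enrichment was 4.96 to 6.06 at 24h and 3.78 to 4.40 in ERKi 24h, without overlap (log2 -0.48, adjusted p = 0.0868). A further Fosl1 region, at -2.8 kb, had a peak in 14 of 15 libraries and was not tested. It read 109 and 154 in 24h replicates 1 and 3, with no peak in replicate 2, and 95, 45 and 111 in ERKi 24h. Its fold enrichment was 2.33 and 3.43 at 24h and 3.26 to 4.70 in ERKi 24h, higher in replicates 1 and 3 where the pileup was lower. Of the 11473 promoter regions with a peak in every library, those most like Fosl1 over the 15 libraries were at Slc25a35 (Pearson's r = 0.959) and Rad18 (r = 0.949). These correlations are a description, and the points share libraries and conditions. The Slc25a35 region read 63, 65 and 62 at 24h and 45, 26 and 34 in ERKi 24h, and the Rad18 region 131, 109 and 113 against 81, 40 and 54.

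**Figure D5:**
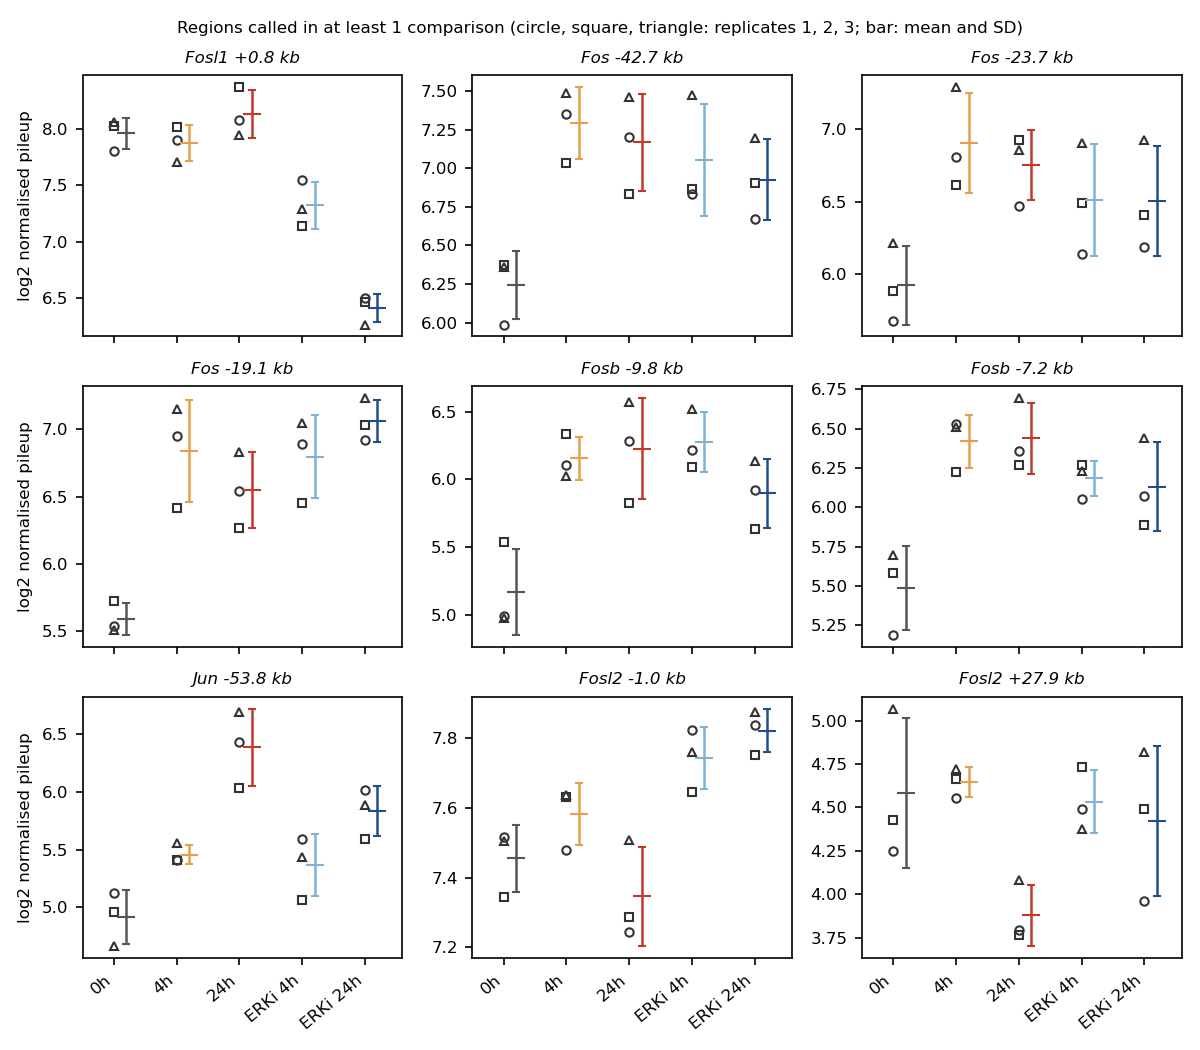
Normalised H3K27ac pileup on the log2 scale in the 9 regions that were called in at least 1 comparison, by condition. Circles, squares and triangles are replicates 1, 2 and 3, and coloured bars the mean ± SD of 3 libraries. Fosl1 drops stepwise from 4h to 24h of the inhibitor, and in the Fos and Fosb regions 0h lies below all other libraries, except for some overlap at Fos -23.7 kb.

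The effect of the inhibitor at 24h was compared with that at 4h in the same fit. Without the block 0 of the 30 regions differed, as did 0% of all regions, and at an unadjusted p under 0.05 limma had 0 of the 30 higher and 1 lower. With the block 1 of the 30 differed, Fosl1, against 3.18% of all regions. There the difference of the effects was -1.17 ± 0.24 on the log2 scale (adjusted p = 0.198), and with the block the SE was 0.20 and the adjusted p 0.00571.

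The rise was at Fosl2. Its -1.0 kb region (chr5:32437552-32438028) read 176, 131 and 181 at 24h and 320, 157 and 317 in ERKi 24h, a normalised rise of 1.39-fold (log2 0.48 ± 0.14, adjusted p = 0.044). The normalised groups did not overlap, but the call was close to the threshold: it was kept only when the library left out was 24h replicate 3, and was lost without any of the other 14, ERKi 4h replicate 1 included (adjusted p of at most 0.158). By fold enrichment the log2 difference was 0.027 (adjusted p = 0.959). The local background in this region was 45.5 to 71.0 at 24h and 56.8 to 115 in ERKi 24h. The start-site region beside it, at -0.16 kb, read 316, 177 and 255 against 471, 218 and 364 (log2 0.27, adjusted p = 0.308). The promoter regions most like that at -1.0 kb were at Akap13 (r = 0.925) and Spsb2 (r = 0.886), over the same 15 libraries.

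At the start of Jun, levels with the inhibitor were also higher in the blocked fit. The 0.28 kb region read 105, 93 and 78 at 24h and 180, 97 and 166 in ERKi 24h (log2 0.50 ± 0.16, adjusted p = 0.0612, and 0.00426 with the block). The other regions called with the block alone in this comparison were Jun at -0.84 kb, Fos at -21.7, -19.1 and 24.3 kb and Fosl2 at 27.9 kb, all higher with log2 differences of 0.32 to 0.54, and Jun at -53.8 kb, lower. The Fos -42.7 and -23.7 kb and Fosb -9.8 and -7.2 kb regions, which had risen with TGF-β, had log2 differences of -0.33 to -0.24 and were not called in either fit.

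Regions without a peak in some libraries were compared by whether a peak was called. At 4h against 0h, 2 of the 65 regions with a peak in either group had a peak in every library on one side of the comparison and in 0 on the other, against 2.21% of all regions. Both lay upstream of Jun. The Jun -91.3 kb region (chr4:94809716-94810518) had no peak at 0h, 50, 27 and 51 fragments at 4h, 30, 22 and 51 in ERKi 4h, and at 24h a peak of 17 in replicate 3 alone. In ERKi 24h it read 30, 27 and 57. The Jun -92.0 kb region had 23, 19 and 27 at 4h and no peak at 0h. At 24h against 0h this held for 6 of 71 regions, against 8.51% of all. Peaks were present at 24h and not at 0h in the Fos 45.6 kb region (37, 17 and 52), the Fos 46.1 kb region (22, 16 and 43) and the Jun 25.8 kb region (29, 21 and 22).

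Without a peak at 24h were the Fos 53.9 kb region, which read 26, 21 and 31 at 0h and 22, 18 and 48 in ERKi 24h, and regions near the starts of Jund and Junb. Jund at -1.5 kb had 148, 61 and 97 at 0h and Junb at -1.2 kb had 223, 160 and 207. The lists give no level where no peak was called, so the level at 24h in these regions is not known. The neighbouring Junb -2.0 kb region read 362, 184 and 296 at 24h. In ERKi 4h against 4h, 0 of 62 regions separated in this way, against 0.766% of all. In ERKi 24h against 24h, 2 of 72 did, against 3.14%. They were the Fos 53.9 kb region and the Atf2 -14.7 kb region, in an intron, which holds the AP-1 matches printed above and had a peak in the ERKi 24h libraries alone (20, 14 and 22).

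The number of distal peaks of the 9 genes summed to 58, 56 and 58 at 0h, 57, 57 and 69 at 4h and 50, 56 and 66 at 24h. It was 57, 60 and 69 in ERKi 4h and 64, 64 and 66 in ERKi 24h. The mean differences were 3.67 peaks at 4h against 0h (exact permutation test, p = 0.8), 0 at 24h (p = 1), 1 in ERKi 4h against 4h (p = 1) and 7.33 in ERKi 24h against 24h (p = 0.4), where 3 libraries against 3 cannot give a two-sided p below 0.1. By gene, the groups did not overlap in 0 of 9 genes at 4h (5.7% of all genes with distal peaks), 1 at 24h (17%), 0 in ERKi 4h (2.58%) and 2 in ERKi 24h (7.31%). At 24h this was Jund, with 1, 1 and 1 against 0, 0 and 0. In ERKi 24h it was Junb, with 7, 7 and 7 against 6, 5 and 5, and Atf3, with 8, 7 and 7 against 4, 5 and 6 (exact p = 0.1 each, the smallest possible).

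No tested region of Atf2 was called in any comparison, and Jund had none to test. Atf2, whose product is switched on mainly by stress kinases, read 248, 160 and 144 at 0h in its 0.22 kb region and 276, 129 and 214 in ERKi 24h, with log2 changes of -0.19 to 0.14 over the 4 comparisons. Of Jund, the most constant Jun protein, the region at -0.35 kb had a peak in 13 libraries, from 77 to 193 fragments. The neighbouring region at chr8:73222982-73224253 was assigned to Gm11175, whose start was nearest for 14 of its 15 peaks. It read 148 to 336 and was not called in any comparison.

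Among 14 genes that act upstream of AP-1, kinases and SRF cofactors with 33 tested regions, 3 regions rose and 0 fell at 4h (3.34% and 0.572% of all regions), and 7 rose and 2 fell at 24h (10.4% and 8.21% of all). All 3 at 4h were at Elk3, a ternary complex factor. Its 0.73 kb region read 104, 70 and 69 at 0h and 175, 124 and 148 at 4h (log2 0.89 ± 0.16, adjusted p = 0.00589). At 24h the 7 were 5 at Elk3 and 2 at Mkl1, and the 2 that fell were at Mkl2. Mkl1 and Mkl2 encode coactivators of SRF. In ERKi 24h against 24h, 3 Mkl2 regions rose and 1 Mkl1 region fell (3.93% and 4.69% of all), and in ERKi 4h against 4h 0 were called (0.0371% and 0.557% of all). The Mkl2 -65.5 kb region read 22, 19 and 29 at 24h and 123, 62 and 182 in ERKi 24h (log2 2.09 ± 0.27, adjusted p = 0.000313). The median log2 change of the 33 regions was 0.12 at 4h and 0.13 at 24h, and 0.0045 and 0.06 with the inhibitor, beside -0.06, -0.05, 0.02 and 0.01 over all regions. With the block, 3 rose and 1 fell at 4h (10.4% and 6.28% of all), and 11 rose and 3 fell at 24h (17.2% and 18.1%). In the blocked fit 2 rose and 1 fell in ERKi 4h (1.34% and 3.57% of all). In ERKi 24h 6 rose and 3 fell (13.1% and 12.9%).

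Of 21 related bZIP genes, 17 had a tested region, 59 in all. At 4h against 0h 0 regions rose and 1 fell, at Nfe2l2 (3.34% and 0.572% of all regions). At 24h 0 rose and 8 fell, at Nfe2l2, Maff, Jdp2, Ddit3, Atf4 and Cebpb (10.4% and 8.21% of all), with a median log2 change of -0.16 beside -0.05 over all regions. In ERKi 4h against 4h 0 rose and 1 fell (0.0371% and 0.557% of all), and in ERKi 24h against 24h 2 rose and 3 fell (3.93% and 4.69% of all). With the block 3 rose and 3 fell at 4h (10.4% and 6.28% of all), and 3 rose and 11 fell at 24h (17.2% and 18.1%). In the blocked fit 0 rose and 2 fell in ERKi 4h (1.34% and 3.57% of all). In ERKi 24h 6 rose and 8 fell (13.1% and 12.9%). The region that fell in ERKi 4h against 4h was nearest to Atf7, the paralogue of Atf2, at -42.97 kb. That region read 89, 77 and 87 at 4h and 19, 30 and 15 in ERKi 4h (log2 -1.97 ± 0.26, adjusted p = 0.00315), and 139, 107 and 123 at 24h and 33, 24 and 40 in ERKi 24h (log2 -2.07 ± 0.26, adjusted p = 0.000248).

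Of 14 known AP-1 target genes, 11 had a tested region, 37 in all. At 4h 3 regions rose, 2 at Cd44 and 1 at Plaur, the urokinase receptor gene, and 0 fell (3.34% and 0.572% of all regions). At 24h 6 rose, among them regions at Cd44, Plaur and Mmp13, and 6 fell, at Vegfa and Ccnd1 (10.4% and 8.21% of all). The Cd44 -47.3 kb region, near the gene of a hyaluronan receptor, read 28, 27 and 36 at 0h, 151, 106 and 151 at 24h and 92, 41 and 148 in ERKi 24h. It rose 4.26-fold at 24h (log2 2.09 ± 0.25, adjusted p = 3.71e-05) and was 1.80-fold lower in ERKi 24h than at 24h (adjusted p = 0.0429). The neighbouring Cd44 -46.6 kb region, which rose 3.54-fold at 24h, was not called in ERKi 24h against 24h. It read 186, 124 and 176 at 24h and 205, 75 and 186 in ERKi 24h. In ERKi 24h against 24h, 1 region rose and 3 fell (3.93% and 4.69% of all), and in ERKi 4h against 4h 0 were called (0.0371% and 0.557% of all). The median log2 change of the 37 was -0.13 at 4h and -0.09 at 24h, and -0.05 and -0.06 with the inhibitor, beside -0.06, -0.05, 0.02 and 0.01 over all regions. With the block 4 rose and 5 fell at 4h (10.4% and 6.28% of all), and 8 rose and 10 fell at 24h (17.2% and 18.1%). In the blocked fit 1 rose and 1 fell in ERKi 4h (1.34% and 3.57% of all). In ERKi 24h 6 rose and 6 fell (13.1% and 12.9%).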

How the data were processed

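The measurement was H3K27ac ChIP-seq, in 15 libraries of NMuMG cells. The 10 RNA-seq and 3 input samples were not analysed here. The authors used bowtie for alignment to mm9 and MACS2 at its defaults for peaks, 1 list per library, and the control used at that step is not given in the sources used here. The deposited lists give the summit's fold enrichment (a ratio to the local background) and the deposited -log10 p and -log10 q. Read totals are not in the lists, so no counting interval was computed. The score column was not used.

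The summit pileup was solved as the whole number of fragments that gives the deposited fold enrichment and -log10 p to within 0.005, which failed for 25 of 893719 peaks, none of them near the 9 genes. Log2 pileups were quantile normalised over the 26920 regions with a pileup in every library and tested with limma, with Benjamini-Hochberg adjustment over all of them. All 5 conditions shared 1 estimate of the spread. A region was called at an adjusted p under 0.05. The steps were tested on simulated data with independent noise in each library. Those data lacked the deviations shared by replicate number that are described below, so the test does not cover them. An exact permutation test (two-sided) served for the numbers of distal peaks.

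Libraries of 1 replicate number in different conditions deviated together (correlation of the deviations from the condition means 0.307 to 0.789 in 30 of 30 pairs, mean 0.578, against -0.28 between different numbers), so the numbers pair the libraries and blocked values are given where they change a call or a count.

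Sequences and motifs were read from the mm9 assembly (NCBIM37). Not every gene of the lists is reported here by name. The genes and lists were chosen with earlier results of these data known. Named were all 9 genes, up to 4 called regions a gene, up to 3 regions a gene with a peak in every library on one side of a comparison and in 0 on the other, and the 2 promoter regions most like a called one. Regions called only with the block were added after their values were seen. Alternatives were fold enrichment, -log10 p, median scaling, the replicate block, -log10 q of at least 10, merging within 1000 bp, at least 3 libraries with a peak, start sites of all genes, other windows and each library left out. Python 3.11.15 with NumPy 2.4.6, SciPy 1.17.1 and pandas 2.3.3, and R 4.3.3 with limma 3.58.1 were used.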

Additional observations from a re-analysis of the deposited data

Results flagged for a closer look

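The difference between the inhibitor's effects at 24h and at 4h passed the test in 1 region of the 9 genes, Fosl1 at 0.76 kb, and only with the replicate number as a block. The fall with the inhibitor was larger at 24h than at 4h (log2 difference of the effects -1.17, limma, adjusted p = 0.00571 with the block and 0.198 without it). Over the alternatives that kept every library the difference was -1.30 to -0.21.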

How the results depend on the processing

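At 4h against 0h 5 of the 30 regions were called, against 0 by fold enrichment, 3 by -log10 p and 10 with the replicate block. Over all regions the same settings called 1053, 82, 529 and 4499. Among regions with a peak in at least 3 libraries 10 of 62 were called (3148 of all regions). With a -log10 q of at least 10 it was 2 of 22 (345 of all). With a library left out it was 1 to 6 of 30 or 31, where 491 to 1319 of all regions were called. At 24h against 0h 7 of the 30 were called, against 3 by fold enrichment and 11 with the block. With at least 3 libraries it was 16 of 62, and with the stricter q 3 of 22. In the same order, 5014, 1425, 9485, 15754 and 1650 of all regions were called. In ERKi 4h against 4h the block gave 1 in place of 0, and 1321 in place of 160 over all regions. In ERKi 24h against 24h 2 of the 30 became 0 by fold enrichment, 1 with median scaling and 9 with the block. Over all regions these were 2320, 358, 2026 and 6986. With the stricter q it was 1 of 22, with merging within 1000 bp 1 of 24, and with at least 3 libraries 7 of 62. Of all regions 527, 2264 and 7643 were called there. With a library left out it was 1 to 3, where 1429 to 2389 of all regions were called. For the effect at 24h against that at 4h the block gave 1 and at least 3 libraries gave 2, in place of 0. Over all regions it was 856 and 1090, in place of 0. In the setting with at least 3 libraries, a missing peak was given percentile 1 of the library's peak pileups. Regions with peaks in a single condition could enter it through that condition, so its counts cannot serve as a check of the others. The block changed no call of a named region other than those given with it above.

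By fold enrichment the sign turned at Fos -42.7 kb (log2 -0.0573 at 4h, -0.126 at 24h), Fos -23.7 kb (-0.0017 at 24h), Fos -21.7 kb (-0.52 at 4h), Fos 11.9 kb (-0.0543 at 4h), Junb -2.0 kb (-0.0582 at 4h, -0.245 at 24h), Atf3 -41.3 kb (0.18 at 24h), Jun -0.84 kb (-0.0735) and Jun -53.8 kb (0.13), the last 2 in ERKi 24h against 24h. By -log10 p Junb -2.0 kb was -0.26 at 24h. These measures are relative to the local background, and the cause was not tested. By -log10 p the calls were lost at Fos -42.7 kb (adjusted p = 0.104 at 4h and 0.103 at 24h), Fos -19.1 kb (0.0574 at 24h), Fosb -9.8 kb (0.0838 at 4h), Fosl2 27.9 kb (0.0863 at 24h) and Fosl2 -1.0 kb (0.266 in ERKi 24h), and with median scaling at Fosl2 27.9 kb (0.203) and -1.0 kb (0.0625). Of 14 calls of named regions, 7 held with each library left out and 0 held under every alternative. The difference in distal peaks at 4h against 0h ran from -0.333 (without 4h replicate 3) to 5.67 with a library left out, and in ERKi 4h against 4h from -2.5 to 5 (-1 without 4h replicate 1 or 4h replicate 2), while in kb covered it was -0.0233. At 24h against 0h it ran from -4.33 (without 24h replicate 3) to 3.67 (without 24h replicate 1), and in ERKi 24h against 24h from 3.67 (without 24h replicate 1) to 11.7 (without 24h replicate 3). Read depth is unknown, so no limit from counting error is given.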
